A study of Mus musculus with 5 samples.

Results

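The genes described here encode the nuclear subunits of the mitochondrial respiratory chain and of ATP synthase. They were chosen by symbol from the deposited gene table of a mouse mitral valve study: symbols beginning with Ndufa, Ndufb, Ndufc, Ndufs or Ndufv and a digit, Sdha to Sdhd, symbols beginning with Uqcr, Cox4 to Cox8 followed by a, b or c, and symbols beginning with Atp5. The rule uses no measured value, and it found 82 of the 24062 genes listed: 37 of complex I, 4 of complex II, 8 of complex III, 16 of complex IV and 17 of ATP synthase, also called complex V. Reads in enough libraries for a test were found for 79 of the 82. Of the others, Ndufs5 and Cox8c had 0 reads in all 5 libraries, and Cox7b2 had 71 reads in 1 library and 0 in the other 4. The rule leaves out some nuclear subunits whose symbols have another form (Cox4i1, Cox4i2, Ndufab1, Cyc1), which are given with the other genes of the pathway, and subunits encoded by mitochondrial DNA were not analysed here.

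Complexes I and II pass electrons from NADH and succinate to ubiquinone, complex III passes them on to cytochrome c, and complex IV, cytochrome c oxidase, passes them to oxygen. Complexes I, III and IV pump protons across the inner mitochondrial membrane, and complex V lets them back through its membrane rotor to make ATP. Heart muscle is among the tissues richest in these complexes, and it makes muscle forms of several complex IV subunits (Cox6a2, Cox7a1, Cox8b) beside or in place of forms made in most tissues (Cox6a1, Cox7a2, Cox8a). Valve leaflets are thin sheets of fibroblast-like interstitial cells under an endothelial cover, attached to heart muscle at their base.

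RNA was sequenced from mitral leaflets in 5 libraries, 2 titled WT and 3 titled KO, in a study of Ift88, which encodes a protein of the transport trains that build and maintain cilia. All 5 carry NfatC1Cre(+), a Cre recombinase made where Nfatc1 is active, which in the heart is the endocardium and the valve endothelium derived from it. The genotype labels give the Ift88f/f allele to the WT group and Ift88+/+ to the KO group, the reverse of what the group names say, and groups here follow the titles. The labels used here do not state age, sex, litter or any pooling of animals, so p-values measure the spread between these samples, which may be partly technical. The libraries are called WT1, WT2, KO1, KO2 and KO3, with numbers in order of deposit that pair no samples.

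Total counts ranged from 23361414 to 53789026 a library. Levels are CPM, each gene's share of a library's counts on a common scale, adjusted by TMM factors between 0.837 and 1.073. Ift88 itself stood at 7.54 CPM in WT1, 19.8 in WT2, 3.001 in KO1, 3.92 in KO2 and 0.409 in KO3, so all 3 KO libraries lay below both WT libraries, with a log2 fold change of -2.48 (SE 1.13, edgeR adjusted p = 0.81). The median biological coefficient of variation between libraries of a group was 62.8%, and no gene in the whole table passed an adjusted p of 0.05 by edgeR's quasi-likelihood test.

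The dominant pattern among the 82 genes was a difference between the WT libraries, with the KO libraries between them. Their summed level was 113634 CPM in WT1, 20211 in WT2, 51095 in KO1, 30185 in KO2 and 35365 in KO3. These sums correspond to 9.51% of all reads in WT1, 2.17% in WT2, 5.16% in KO1, 3.18% in KO2 and 3.70% in KO3. WT1 thus stood 5.62-fold above WT2, and the KO libraries ran from 1.49 to 2.53 times WT2. Counted gene by gene, the median ratio of WT1 to WT2 was 4.91 among members with reads in WT2, against 0.924 over all genes tested. In WT1, 28 of the 100 genes with the most reads were members, in KO1 11, in KO3 9, in KO2 6 and in WT2 1. In these bulk samples a smaller number of cells of a mitochondria-rich type and less RNA per cell cannot be told apart.

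The same libraries differed in heart muscle RNA. The 13 cardiomyocyte markers examined summed to 70682 CPM in WT1, 104 in WT2, 39029 in KO1, 27277 in KO2 and 34470.0 in KO3, and all 13 were lowest in WT2, where 2 of them had 0 reads. Actc1, the cardiac actin, stood at 31260.1 CPM in WT1, 27.7 in WT2, 16193 in KO1, 14313 in KO2 and 17613 in KO3, and made up between 41.5 and 52.5% of the sum in every library but WT2. The other markers were less even: in 8 of the 13 the highest KO library was more than 5 times the lowest, up to 173 times for Mb (myoglobin). Myl2, the ventricular myosin light chain, stood at 8687 CPM in WT1, 9.19 in WT2, 4503 in KO1, 724 in KO2 and 512 in KO3, and Myl7, the atrial form, at 556 CPM in WT1, 10.1 in WT2, 149 in KO1, 5081 in KO2 and 6871 in KO3. Heart muscle RNA thus differed in amount and in the balance of this pair. Myl2 was above Myl7 in WT1 and KO1 and below it in KO2 and KO3. Myh7 was likewise above Myh6 in WT1 and KO1 and below it in KO2 and KO3. Nppa, also among the 13, did not split the libraries that way. It stood at 1544 CPM in WT1, 0.607 in WT2, 345 in KO1, 43.6 in KO2 and 495 in KO3. The ratio of the summed members to the summed cardiomyocyte markers was 1.61 in WT1, 1.31 in KO1, 1.107 in KO2 and 1.03 in KO3, but 194 in WT2. With Actc1 left out of the marker sum it was 2.88 in WT1, 2.24 in KO1, 2.33 in KO2 and 2.098 in KO3, and 264 in WT2. WT2 stood apart from the other 4 libraries in both, while a ratio to 1 marker such as Myl2 or Myl7 would vary as those genes do. Markers of the cells that a leaflet should hold were present in all libraries: the 7 endothelial markers summed to 252 CPM in WT1, 2475 in WT2, 1486 in KO1, 2032 in KO2 and 1522 in KO3. The 8 interstitial markers summed to 2084 CPM in WT1, 4477 in WT2, 9394 in KO1, 8628 in KO2 and 6555 in KO3, and 0 of the 8 were without reads in any library. Of 8 adipocyte markers, 6 or 7 had 0 reads in each library, Adipoq among them. Cidea, the only 1 with enough reads for a test, stood at 28.6 CPM in WT1, 0.901 in WT2, 16.0 in KO1, 11.9 in KO2 and 27.3 in KO3. The 6 skeletal muscle markers, which include Acta1, summed to 221 CPM in WT1, 4.40 in WT2, 68.3 in KO1, 318 in KO2 and 2252 in KO3, and 2 to 4 of the 6 had 0 reads in each library. Of these sums Acta1 alone held 211 CPM in WT1, 1.63 in WT2, 62.5 in KO1, 315 in KO2 and 2246 in KO3. Myh4 and Myh1 had 0 reads in every library and Actn3 had 0 in every KO library, while Mylpf was read in all, at up to 5.90 CPM. The part of heart muscle RNA in the levels of the respiratory genes was not tested.

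**Figure D1:**
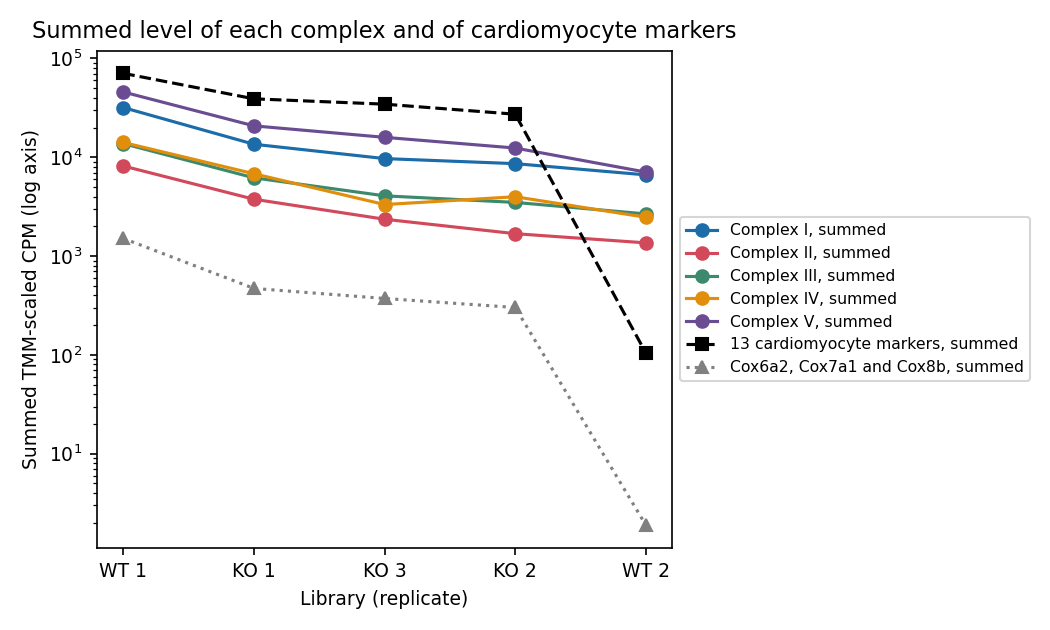
Summed TMM-scaled CPM (log axis) in each library (x axis, ordered WT1, KO1, KO3, KO2, WT2). Each solid line is the genes of 1 complex, the dashed line the 13 cardiomyocyte markers, and the dotted line Cox6a2, Cox7a1 and Cox8b together. All 5 complexes are highest in WT1 and lowest in WT2, and the markers stand at 70682 CPM in WT1 and 104 in WT2.

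No member differed between KO and WT beyond the spread between libraries. By edgeR's quasi-likelihood test, 0 of 79 members had an adjusted p under 0.05, where the background is 0% of all 14244 genes tested, and 0 had an unadjusted p under 0.05, against a background of 5.84%. DESeq2, edgeR's likelihood-ratio test and limma-voom also called 0 members, with backgrounds of 1.53%, 0.351% and 0% of genes called in either direction, and of 0.0492%, 0.0211% and 0% called lower in KO. The fitted log2 fold change, KO against WT, was below 0 for 78 of the 79 members, against 50.6% of all genes tested, and the exception was Ndufa4l2, at 0.09. The median was -0.83 over members and -0.01 over all genes tested, and it stayed below 0 with libraries scaled by total counts (-0.59, where the median of all genes moved up by 0.12) and under limma-voom (-0.42). No member had every KO library below both WT libraries, where the background is 11.1%, and none had every KO library above both, where it is 13.5%. Instead, 59 of the 79 had WT1 as the highest and WT2 as the lowest of the 5 libraries, an order found in 9.51% of all genes tested. WT1 was the highest library for 78 members, all but Cox6b2, and KO1 the highest of the KO libraries for 72. On a log2 scale from WT2 at 0 to WT1 at 1, the mean of the KO libraries lay at a median of 0.314, nearer to WT2.

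**Figure D2:**
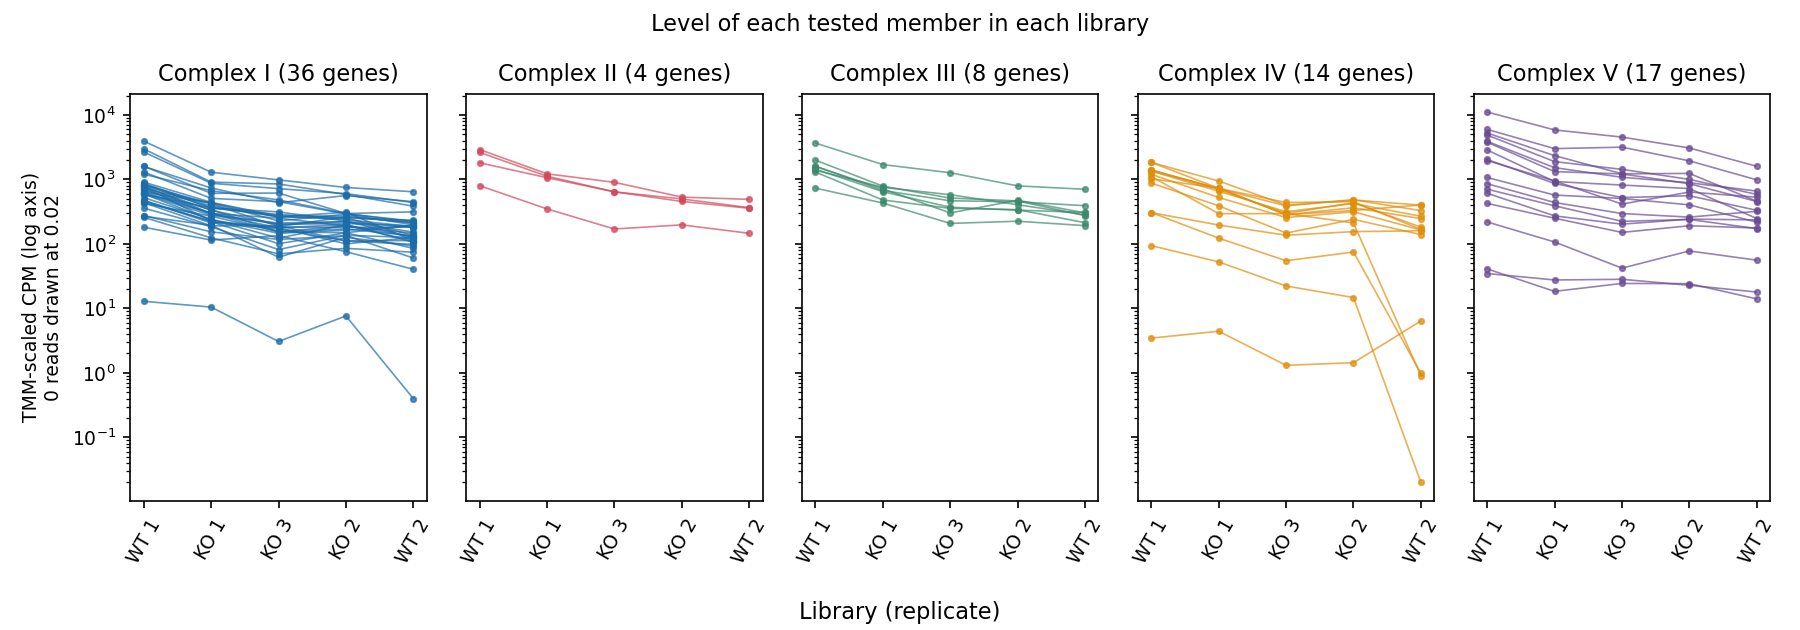
Level of each tested member (TMM-scaled CPM, log axis) in each library, 1 panel per complex and 1 line per gene; 0 reads are drawn at 0.02. Most lines start high in WT1 and end low in WT2, and 3 lines of complex IV (Cox6a2, Cox7a1, Cox8b) drop to 0.988 CPM or less in WT2.

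The direction of the group difference therefore depended on which WT library was used. Without WT2, all 79 members tested had a log2 fold change below 0 (42.9% of all genes), with a median of -1.53 (all genes 0.25), and 78 had every KO library below WT1 (30.1% of all genes). In that fit 0 members were called, where the background is 0% of genes, the smallest edgeR adjusted p was 0.109, and 72 members had an unadjusted p under 0.05, against a background of 16.3%. Without WT1, 74 of 80 members had a log2 fold change above 0 (55.2% of all genes), with a median of 0.72 (all genes 0.15), and 58 had every KO library above WT2 (27.5% of all genes), against 2 with every KO library below it (30% of all genes). There, 3 members were called higher in KO, Cox6a2, Cox7a1 and Cox8b, all muscle forms of complex IV subunits, where the background is 1.48% of genes called higher. The 13 cardiomyocyte markers had a median of 8.89 (log2 fold change) in the same fit. Over the 3 libraries whose titles share a code (WT1, KO1 and KO2), 78 members had both KO libraries below WT1 (36% of all genes), and without KO1 8 had both other KO libraries below both WT libraries (17.9% of all genes). In each fit that leaves out a WT library the other WT library stands alone and is assumed to vary as the KO libraries do. All genes moved too, by 0.17 in their median without WT1 and by 0.27 without WT2, upward in both. The members' median moved from -0.83 up to 0.72 without WT1 and down to -1.53 without WT2.

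**Figure D3:**
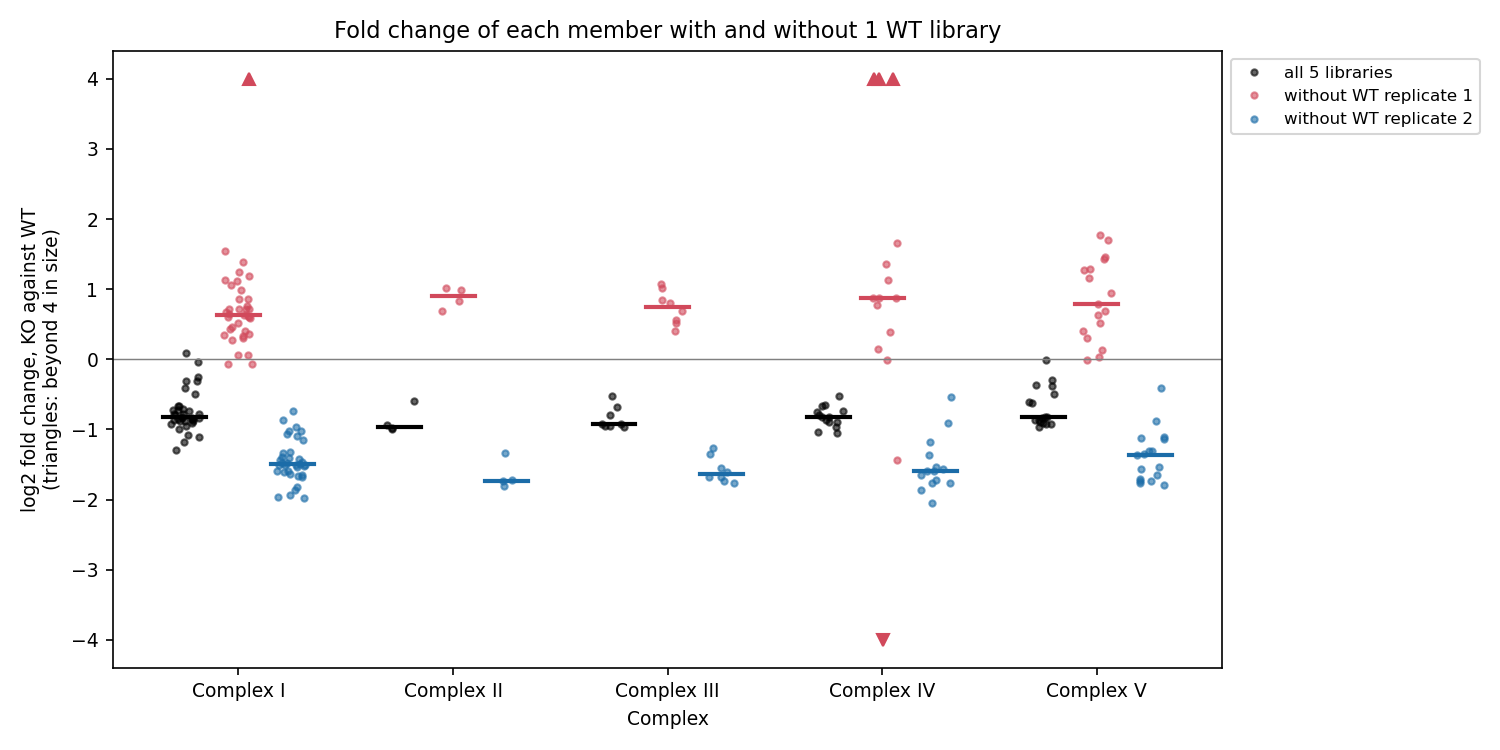
log2 fold change, KO against WT, of each member (points) by complex, with all 5 libraries, without WT1 and without WT2; horizontal bars are medians and triangles mark values beyond 4 in size. Points lie mostly below 0 with all libraries, all below 0 without WT2, and mostly above 0 without WT1.

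In summed level, all 5 complexes had WT1 highest, KO1 next and WT2 lowest. Complex V took the largest share of the members' reads, as summed CPM, in every library: 40.3% in WT1, 35.0% in WT2, 40.7% in KO1, 41.1% in KO2 and 45.0% in KO3. Complex I followed with 28.0%, 32.8%, 26.5%, 28.6% and 27.4% in the same order. Complex IV held 12.4%, 12.2%, 13.3% and 13.2% in WT1, WT2, KO1 and KO2, and 9.40% in KO3, its lowest share. Complexes III and II held between 11.5 and 13.2% and between 5.58 and 7.36%. In summed CPM, WT1 was 4.80 times WT2 for complex I, 5.996 for II, 5.15 for III, 5.71 for IV and 6.47 for V. Gene by gene, the median ratio was 4.45 for complex I, 5.70 for II, 5.07 for III, 5.60 for IV and 4.92 for V, so complex I was lowest by both measures and the place of complex V depended on the measure. Median log2 fold changes, KO against WT, were -0.83 for complex I, -0.96 for II, -0.92 for III, -0.83 for IV and -0.83 for V. The SD between libraries of a group of a complex's median log2 level ranged from 0.92 for complex I to 1.23 for complex IV. All 5 complexes were read in the same libraries, so this SD does not measure the spread of the gaps between complexes. Those gaps were not tested.

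Complex I takes electrons from NADH at its peripheral arm. The 7 core subunits in the table, such as Ndufv1, Ndufv2 and Ndufs1, carry the flavin and the iron-sulfur clusters and form much of the quinone site. All 7 had log2 fold changes below 0 (Ndufs1 was above 0 under limma-voom), with a median of -0.74. The other 29 tested members with a complex I symbol, counted as accessory and including Ndufa4 and Ndufa4l2, had a median of -0.84. With the trend of level with transcript length removed from each library, the medians were -0.43 and -0.37, so both shrank and their order turned. Ndufv1, which binds NADH and the flavin, stood at 1604 CPM in WT1, 218 in WT2, 609 in KO1, 297 in KO2 and 615 in KO3. Ndufs1, the largest iron-sulfur subunit, stood at 715 CPM in WT1, 113 in WT2, 432 in KO1, 310.1 in KO2 and 263 in KO3. For both genes the KO libraries lay between the WT libraries, and KO3 was level with KO1 for Ndufv1 but the lowest KO library for Ndufs1. The log2 fold change was -0.84 (SE 0.81) for Ndufv1 and -0.30 (SE 0.74) for Ndufs1. Ndufv2, the iron-sulfur partner of Ndufv1 in the NADH module, was at -1.08 (SE 0.72) in log2 fold change, and Ndufs3, Ndufs7 and Ndufs8 had values from -0.79 to -0.72.

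Among accessory subunits, most of which surround the core, the lowest fitted values were those of Ndufb4, Ndufb8 and Ndufb9, membrane-arm subunits. Ndufb4 stood at 776 CPM in WT1, 184 in WT2, 225 in KO1, 180.3 in KO2 and 183 in KO3. WT1 alone was high, and WT2 fell among the KO libraries. Its means were 480.0 ± 419 CPM (SD, n = 2) in WT and 196 ± 25.4 CPM (SD, n = 3) in KO, and its log2 fold change was -1.29 (SE 0.60, edgeR adjusted p = 0.810), the smallest p of all members. Ndufb8, the most abundant complex I member per transcript length, stood at 3930.1 CPM in WT1, 644 in WT2, 1296 in KO1, 751 in KO2 and 985 in KO3, with a log2 fold change of -1.18 (SE 0.74). Ndufb9 stood at 2985 CPM in WT1, 385 in WT2, 909.9 in KO1, 584 in KO2 and 853 in KO3, with a log2 fold change of -1.11 (SE 0.79). For Ndufb8 and Ndufb9 WT2 was the lowest library.

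Among members counted under complex I by symbol, the highest fitted values were those of Ndufa4l2, Ndufa12 and Ndufa10. Ndufa12, an accessory subunit of the peripheral arm, stood at 182 CPM in WT1, 40.5 in WT2, 115 in KO1, 75.8 in KO2 and 134 in KO3, which put KO3 above the other KO libraries. Its log2 fold change was -0.03 (SE 0.65), and that of Ndufa10 was -0.25 (SE 0.65). The value for Ndufa12 turned positive when libraries were scaled by total counts (0.20) and with the length trend of each library taken out (0.52), and those of Ndufa12, Ndufa10 and Ndufs1 did under limma-voom. Ndufa4, named after complex I but found in complex IV, and its paralogue Ndufa4l2, known as a hypoxia-induced gene, both had WT1 as the highest library. Ndufa4 stood at 1596 CPM in WT1, 452 in WT2, 738 in KO1, 562 in KO2 and 437 in KO3, and Ndufa4l2 at 12.9 CPM in WT1, 0.399 in WT2, 10.5 in KO1, 7.64 in KO2 and 3.07 in KO3. Per transcript length Ndufa4l2 made up 0.390% in WT1, 0.0426% in WT2, 0.683% in KO1, 0.654% in KO2 and 0.339% in KO3 of the pair, so Ndufa4 was the prevailing form in all 5 libraries.

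Complex II, succinate dehydrogenase, is also an enzyme of the citric acid cycle and has 4 subunits, all encoded in the nucleus. Sdha, the flavoprotein that oxidises succinate, stood at 1815 CPM in WT1, 358 in WT2, 1065 in KO1, 456 in KO2 and 643 in KO3, with a log2 fold change of -0.59 (SE 0.73). Sdhb, the iron-sulfur subunit, stood at 2633 CPM in WT1, 365 in WT2, 1123 in KO1, 499 in KO2 and 643 in KO3, with a log2 fold change of -0.99 (SE 0.82). The membrane anchors Sdhc and Sdhd were at -0.98 (SE 0.72) and -0.94 (SE 0.77) in log2 fold change. All 4 were highest in WT1, lowest in WT2 and highest of the KO libraries in KO1.

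Complex III members showed the same order without exception: all 8 were highest in WT1 and lowest in WT2. Uqcrfs1, the Rieske iron-sulfur protein that takes electrons from ubiquinol, stood at 1992 CPM in WT1, 275 in WT2, 787 in KO1, 465 in KO2 and 515 in KO3, with a log2 fold change of -0.94 (SE 0.78). The core protein gene Uqcrc1 stood at 3672 CPM in WT1, 705 in WT2, 1702 in KO1, 795 in KO2 and 1271 in KO3, with a log2 fold change of -0.80 (SE 0.73). Its partner Uqcrc2 was at -0.53 (SE 0.69), the highest log2 fold change of the complex. The small subunits Uqcrq, Uqcr11 and Uqcr10 were at -0.95 (SE 0.72), -0.96 (SE 0.68) and -0.68 (SE 0.64) in log2 fold change. Per transcript length Uqcrh, the hinge protein that helps dock cytochrome c1 and c, was the most abundant, with 4393 TPM in WT1, 1537 in WT2, 2476 in KO1, 1871 in KO2 and 1946 in KO3.

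Complex IV holds the genes that set WT2 apart most. Cox5a and Cox5b, which flank the catalytic core made from mitochondrial DNA, have no tissue forms among the members and followed the common order. Cox5a stood at 1843 CPM in WT1, 168 in WT2, 728 in KO1, 452 in KO2 and 439 in KO3, and Cox5b at 1202 CPM in WT1, 165 in WT2, 526 in KO1, 316 in KO2 and 257 in KO3. WT1 was 11.0 times WT2 for Cox5a and 7.28 times for Cox5b, and the log2 fold changes, KO against WT, were -0.90 (SE 0.89) and -0.90 (SE 0.80). Cox6b1, the most abundant complex IV member per transcript length, stood at 1835 CPM in WT1, 329 in WT2, 946 in KO1, 484 in KO2 and 399.9 in KO3, with a log2 fold change of -0.83 (SE 0.76). Cox7b and Cox7c, small membrane subunits, were at -0.75 (SE 0.83) and -0.97 (SE 0.79) in log2 fold change.

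The promoters of Cox7a1 and Cox8b are shown because these muscle forms are, with Cox6a2, the members in which WT2 stood farthest below the other libraries, and those of Cox6a1, Cox7a2 and Cox8a because they are the forms made in most tissues. The promoter of Cox6a2 is not shown, and it is not among the windows searched. Each line gives bases 250 to 31 before the RefSeq start of the gene (GRCm38.p6), 5′ to 3′ on the gene's strand, and capitals mark the words GCGCANGCG (for NRF1, a factor known to drive respiratory genes), CCGGAAG (bound by ETS factors such as GABP) or AANATGGCG (YY1), on either strand. Cox6a1 is from chr5:115348989-115349208, minus strand, Cox7a1 from chr7:30183921-30184140, plus strand, Cox7a2 from chr9:79759884-79760103, minus strand, Cox8a from chr19:7217647-7217866, minus strand and Cox8b from chr7:140900477-140900696, minus strand.
Cox6a1: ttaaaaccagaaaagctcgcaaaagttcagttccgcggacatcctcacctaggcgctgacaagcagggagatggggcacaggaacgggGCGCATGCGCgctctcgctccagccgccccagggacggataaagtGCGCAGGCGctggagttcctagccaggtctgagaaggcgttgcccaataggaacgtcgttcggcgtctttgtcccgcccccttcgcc
Cox7a1: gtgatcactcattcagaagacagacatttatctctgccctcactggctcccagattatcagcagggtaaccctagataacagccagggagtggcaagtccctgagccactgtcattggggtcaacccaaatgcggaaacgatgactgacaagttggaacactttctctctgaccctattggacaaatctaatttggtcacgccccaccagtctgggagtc
Cox7a2: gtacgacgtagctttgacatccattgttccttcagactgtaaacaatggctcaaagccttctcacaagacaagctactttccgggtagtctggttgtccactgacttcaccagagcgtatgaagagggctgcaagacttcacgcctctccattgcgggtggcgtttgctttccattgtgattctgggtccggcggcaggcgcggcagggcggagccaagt
Cox8a: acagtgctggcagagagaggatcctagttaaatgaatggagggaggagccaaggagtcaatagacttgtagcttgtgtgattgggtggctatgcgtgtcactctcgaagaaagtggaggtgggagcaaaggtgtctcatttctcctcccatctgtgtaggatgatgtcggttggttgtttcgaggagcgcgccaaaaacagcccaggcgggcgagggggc
Cox8b: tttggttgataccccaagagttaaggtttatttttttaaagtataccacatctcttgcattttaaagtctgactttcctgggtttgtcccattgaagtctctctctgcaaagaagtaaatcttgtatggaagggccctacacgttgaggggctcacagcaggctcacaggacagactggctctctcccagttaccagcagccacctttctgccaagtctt

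In the Cox6a1 sequence the capitals mark 2 stretches with the NRF1 word, GCGCATGCGC, which holds it on both strands, and GCGCAGGCG, and the other 4 sequences hold none of the 3 words. In the full RefSeq windows, from 250 bases before to 50 after the start, 66 members had an entry. The NRF1 word was in 20 of the 66 (30.3%), against 7.03% of all 27025 genes with a window and 14.2% of the 10654 tested ones. It was in 8 of 32 windows of complex I, 2 of 3 of II, 2 of 5 of III, 1 of 13 of IV and 7 of 13 of V. The ETS word was in 16 (24.2%, against 9.93% of all genes and 18.4% of tested ones), among them Cox6a1, Cox6b1 and Cox8a, where it lies outside the stretch printed for Cox6a1 and Cox8a, and the YY1 word in 10 (15.2%, against 2.76% and 5.46%). The MEF2 motif of muscle genes was in 0 of the 66, which hold Cox7a1 and Cox8b but not Cox6a2, against 3.70% of all genes and 2.35% of tested ones. The words can overlap in part, and a match is a description of the sequence only.

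Cox6a2, Cox7a1 and Cox8b are the forms of subunits 6a, 7a and 8 made in heart and skeletal muscle, and all 3 lie on chromosome 7 of GRCm38 (GENCODE M21): Cox6a2 at chr7:128205435-128206387, Cox7a1 at chr7:30184144-30186078 and Cox8b at chr7:140898945-140900446. Cox6a2 stood at 1108 CPM in WT1, 0.901 in WT2, 295 in KO1, 212 in KO2 and 295 in KO3, from 29126, 52, 9342, 8999 and 7210 reads. Cox7a1 stood at 307 CPM in WT1, 0.988 in WT2, 123 in KO1, 74.9 in KO2 and 54.9 in KO3, and Cox8b at 94.1 CPM in WT1, 0 in WT2, 52.7 in KO1, 14.7 in KO2 and 22.3 in KO3. All 3 were abundant in WT1 and in every KO library and near or at 0 in WT2, so the KO libraries did not overlap with WT2 and lay below WT1. In WT2 the 95% Poisson interval, which covers counting error only, was 0.673 to 1.18 CPM for Cox6a2 and 0.748 to 1.28 CPM for Cox7a1. For Cox8b, with 0 reads, the interval reached up to 0.0639 CPM. Its ratios use a floor of 3 counts, which is 0.052 CPM and lies below that end. Cox6a2 was 1229.8-fold higher in WT1 than in WT2 and between 235 and 327 times higher in the KO libraries, and Cox7a1 311-fold and between 55.6 and 124 times. Against that floor of 3 counts in WT2, Cox8b was at least 1809.9-fold higher in WT1 and at least 1013-fold higher in KO1. Against the same floor it was at least 283-fold higher in KO2 and at least 428-fold higher in KO3. With all libraries, the log2 fold changes were -1.05 (SE 1.80), -0.87 (SE 1.60) and -0.65 (SE 2.06), with edgeR adjusted p between 0.961 and 0.984, and limma-voom turned all 3 positive. Without WT1 they were 8.18 (SE 0.59, edgeR adjusted p = 0.00242) for Cox6a2 and 6.38 (SE 0.82, edgeR adjusted p = 0.0153) for Cox7a1, and the edgeR adjusted p was 0.0213 for Cox8b, whose fitted value depends on the prior count because WT2 has 0 reads. Without WT2, the log2 fold change of Cox6a2 was -2.05 with an edgeR adjusted p of 0.109.

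The forms made in most tissues were read in all libraries. Cox6a1 stood at 1022 CPM in WT1, 402 in WT2, 737 in KO1, 331 in KO2 and 283 in KO3, so WT1 was only 2.54 times WT2, and KO2 and KO3 were below WT2. Cox7a2 stood at 1386 CPM in WT1, 247 in WT2, 733 in KO1, 365 in KO2 and 284 in KO3, and Cox8a at 1348 CPM in WT1, 268 in WT2, 656 in KO1, 423 in KO2 and 316 in KO3. Both followed the common order, with WT2 lowest. Per transcript length, Cox6a2 made up 47.7% in WT1, 0.188% in WT2, 25.2% in KO1, 35.0% in KO2 and 46.7% in KO3 of the Cox6a pair. Cox7a1 made up 27.1% in WT1, 0.665% in WT2, 21.9% in KO1, 25.6% in KO2 and 24.5% in KO3 of the Cox7a1 and Cox7a2 pair. Cox8b made up 9.64% in WT1, 0% in WT2, 10.9% in KO1, 5.05% in KO2 and 9.71% in KO3 of the Cox8 pair. The muscle share was thus largest for subunit 6a and smallest for subunit 8 in each library but WT2. With the 3 muscle forms left out, the median log2 fold change of complex IV was -0.83, as with them. Cox7a2l, a Cox7a relative that joins complexes III and IV in supercomplexes, varied little by comparison: it stood at 306 CPM in WT1, 160.3 in WT2, 196 in KO1, 155 in KO2 and 137 in KO3, with a log2 fold change of -0.52 (SE 0.40). Cox6b2, known mainly from testis, was the only tested member highest in WT2, at 3.46 CPM in WT1, 6.38 in WT2, 4.42 in KO1, 1.44 in KO2 and 1.31 in KO3, and it made up at most 1.55% of the Cox6b pair per transcript length. Cox7b2, another form known from testis, had 71 reads in WT2, or 1.23 CPM, and 0 in the other libraries.

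**Figure D4:**
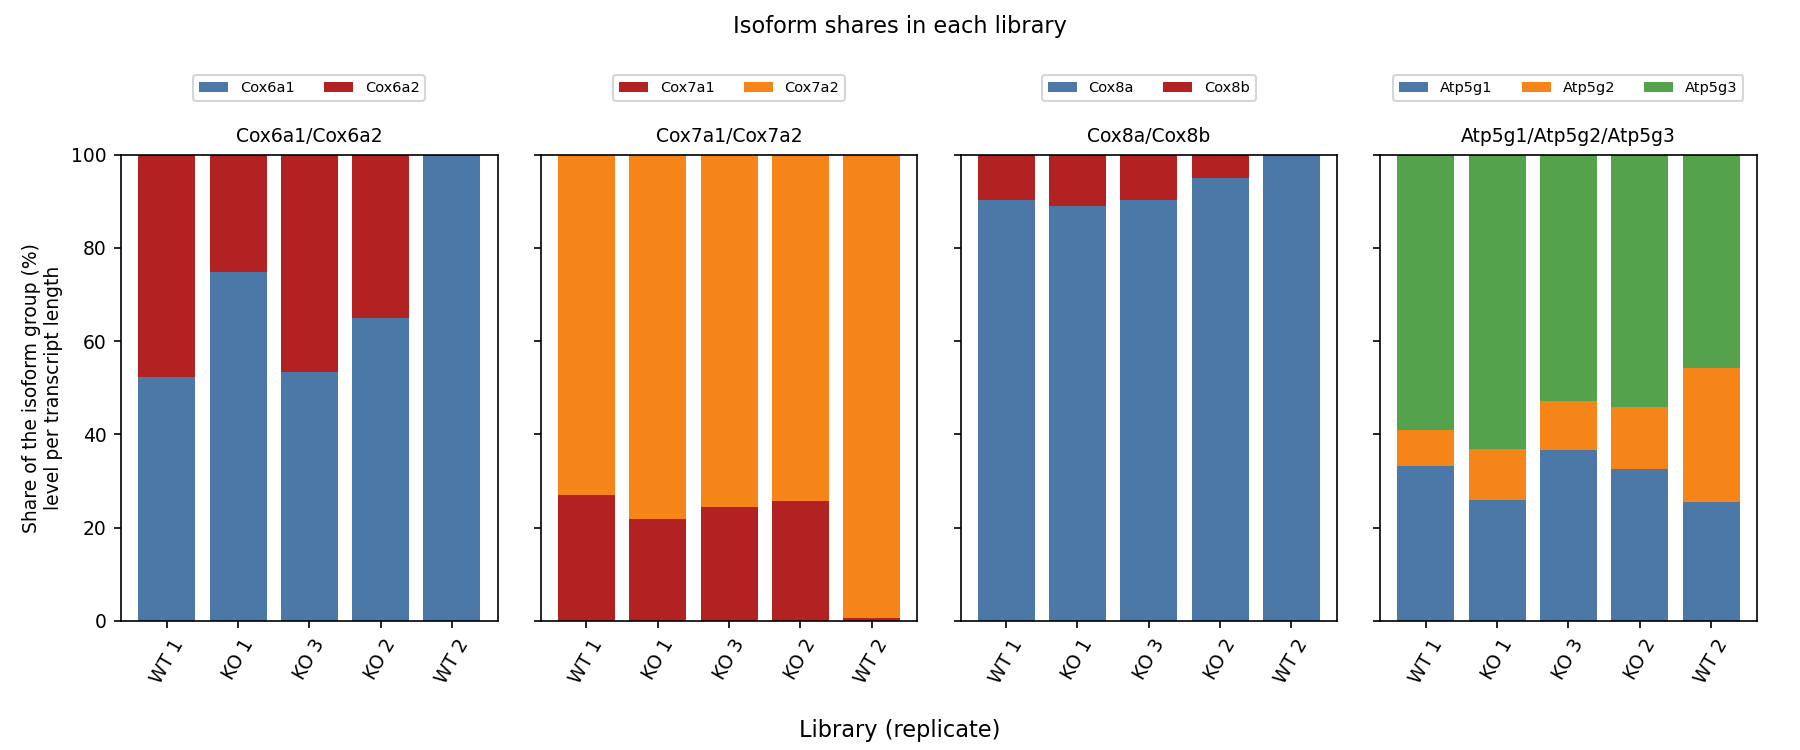
Share (%) of each form within its subunit, from levels per transcript length, in each library (x axis); stacked bars, 1 panel per subunit. The muscle forms Cox6a2, Cox7a1 and Cox8b have a share in WT1 and all 3 KO libraries and 0.665% or less in WT2, where the Atp5g2 share is the largest of the 5 libraries, at 28.6%.

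ATP synthase took more reads than any other complex of the chain. Atp5b, the catalytic beta subunit, stood at 11125 CPM in WT1, 1602 in WT2, 5868 in KO1, 3079 in KO2 and 4546 in KO3, and Atp5a1, the alpha subunit beside it, at 5983 CPM in WT1, 987 in WT2, 3010.0 in KO1, 1945 in KO2 and 3172 in KO3. Both had WT1 highest and WT2 lowest, and for Atp5a1 KO3 was the highest KO library. In log2 fold change Atp5b was at -0.50 (SE 0.80) and Atp5a1 at -0.36 (SE 0.75), while the gamma subunit of the central shaft, Atp5c1, was at -0.92 (SE 0.84). In median log2 fold change the catalytic F1 head (5 genes) was at -0.50 and the stalk and membrane part (10 genes) at -0.87, a difference that was not tested. With the length trend removed, the medians were -0.45 and -0.39, so that order turned too. Atp5f1, the b subunit of the outer stalk, was at -0.97 (SE 0.73) in log2 fold change. Atp5s and Atp5sl, which carry the name but are not subunits of the rotor or head, had few reads: Atp5s stood at 41.0 CPM in WT1, 14.1 in WT2, 18.4 in KO1, 24.2 in KO2 and 24.4 in KO3, with a log2 fold change of -0.30 (SE 0.57). Atp5sl stood at 34.8 CPM in WT1, 17.9 in WT2, 27.6 in KO1, 22.8 in KO2 and 28.3 in KO3, with a log2 fold change of -0.01 (SE 0.47), and WT1 was 1.94 times WT2. Under limma-voom the fitted values of Atp5a1, Atp5b, Atp5g3, Atp5s and Atp5sl were above 0, by 0.15 or less, and that of Atp5sl was also above 0 with total counts (0.17) and with the length trend taken out (0.20).

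The ring of c subunits, which turns as protons pass, is made from 3 genes with the same mature protein. Atp5g1 stood at 2864 CPM in WT1, 248 in WT2, 929 in KO1, 723 in KO2 and 819 in KO3, with WT1 at 11.6 times WT2. Atp5g3, the most abundant member of the complex per transcript length, stood at 5256 CPM in WT1, 459 in WT2, 2343 in KO1, 1241 in KO2 and 1225 in KO3, with WT1 at 11.4 times WT2. Atp5g2 stood at 426 CPM in WT1, 177 in WT2, 251 in KO1, 191 in KO2 and 151 in KO3, with WT1 at 2.40 times WT2 and KO3 below WT2. The 3 genes thus differed in how far WT2 lay below the rest. Per transcript length Atp5g2 made up 7.74% in WT1, 28.6% in WT2, 10.9% in KO1, 13.5% in KO2 and 10.6% in KO3 of the 3. The log2 fold changes, KO against WT, were -0.92 (SE 0.89) for Atp5g1, -0.61 (SE 0.47) for Atp5g2 and -0.83 (SE 0.93) for Atp5g3. Without WT1, Atp5g1 had a log2 fold change of 1.70 (SE 0.35, edgeR adjusted p = 0.0810), the nearest to a call after the 3 muscle forms.

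The order of KO2 and KO3 split the members by transcript length. Members are short, with a median length of 680 nt against 2430 nt over all genes, and 31 are under 600 nt while 10 are at or above 1500 nt. The ratio of KO3 to KO2 had a median of 0.835 among the 31 short ones, of which 8 were above 1, and of 1.42 among the 10 long ones, of which 8 were above 1. Ndufa3 (351 nt) was at 0.492, Cox7c (540 nt) at 0.612 and Uqcrb (535 nt) at 0.635, while Atp5b (1916 nt) was at 1.48, Uqcrc1 (1653 nt) at 1.60 and Atp5a1 (2471 nt) at 1.63. Ndufs1, at 2590 nt, was an exception with 0.848. Spearman's rho of the ratio with length was 0.56 across the 79 members and -0.08 across 12649 genes, given as a description, since genes of 1 pair of libraries share those libraries' depth and composition. Complex IV, whose members are mostly short, had a median ratio of 0.820, complex II one of 1.35 and complex V one of 1.13. With each library's trend of level with length removed, 76 of 79 members had WT1 highest and WT2 lowest (11.3% of all genes), and the median log2 fold change was -0.39 (all genes -0.09). That correction left 73 of 79 below 0. Without the correction, Spearman's rho of the log2 fold change with length was 0.19 across members and 0.39 across 14131 genes. Shorter genes thus tended to lower values over the whole table. The shares and medians of all genes set beside those of the members are not matched for length.

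**Figure D5:**
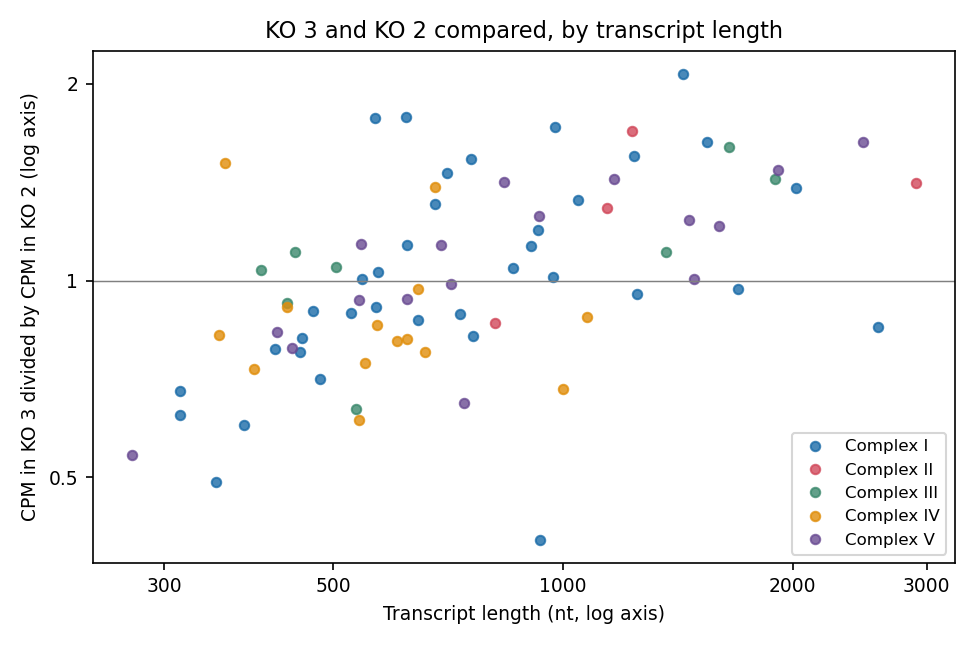
CPM in KO3 divided by CPM in KO2 (y, log axis) against transcript length in nt (x, log axis), 1 point per tested member, coloured by complex. Most members under 600 nt lie below 1 (median 0.835) and most at or above 1500 nt above 1 (median 1.42).

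Other genes of the pathway, in lists chosen by function, mostly had log2 fold changes below 0. In edgeR's quasi-likelihood test 0 of them passed an adjusted p of 0.05, where the background is 0%. Of 9 nuclear subunits, carriers and related genes outside the symbol rule, all 9 had log2 fold changes below 0 (median -0.76), but the median was 0.54 without WT1 and -1.41 without WT2. Cox4i1, the major form of complex IV subunit 4, stood at 3674 CPM in WT1, 826 in WT2, 1531 in KO1, 923 in KO2 and 1205 in KO3, with a log2 fold change of -0.88 (SE 0.65). Ndufab1, the mitochondrial acyl carrier protein, was at -1.15 (SE 0.84), and Higd2a, a complex IV assembly and supercomplex factor, at -0.76 (SE 0.56), both in log2 fold change. Of 6 carriers and porins that move phosphate, ADP, ATP and metabolites, all 6 were below 0 (median -0.68). WT1 was highest and WT2 lowest for 5 of the 6 (9.51% of all genes). Their median was 0.99 without WT1 and -1.35 without WT2. Slc25a5, an ADP/ATP carrier, was at -0.85 (SE 0.74), Slc25a3, the phosphate carrier, at -0.73 (SE 0.75), and the porin Vdac3 at -0.71 (SE 0.44), all in log2 fold change.

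Assembly factors build the complexes without being part of them. All 13 tested complex I factors were below 0 (median -0.60), as were 18 of 19 for complex IV (median -0.75), 3 of 3 for ATP synthase (median -0.75), 3 of 5 for complex III (median -0.53) and 2 of 2 for complex II (median -0.55). Without WT1 the median was above 0 for the factors of complex I (0.48), complex III (0.97) and ATP synthase (0.13), and it was -0.10 for complex IV and -0.40 for complex II. Without WT2 the 5 medians lay between -1.33 and -0.67. WT1 was highest and WT2 lowest for 6 of 13 complex I factors, 1 of 5 complex III factors and 2 of 19 complex IV factors. That order was found in 9.51% of all genes tested, a share near that of the complex IV factors. Every KO library lay below both WT libraries for 5 of the 19 complex IV factors, Surf1, Cox11, Cox14, Coa6 and Pet100, and for 1 complex I factor, Ndufaf2, against the background of 11.1%. Cox14 stood at 207 CPM in WT1, 141 in WT2, 116 in KO1, 86.8 in KO2 and 80.0 in KO3, with a log2 fold change of -0.89 (SE 0.35, edgeR adjusted p = 0.810). Cox11, a copper chaperone, stood at 76.5 CPM in WT1, 29.8 in WT2, 28.5 in KO1, 23.5 in KO2 and 23.99 in KO3, with a log2 fold change of -1.07 (SE 0.50), and Coa6 at 37.6 CPM in WT1, 29.3 in WT2, 22.0 in KO1, 14.9 in KO2 and 14.3 in KO3, with a log2 fold change of -0.97 (SE 0.46). Of complex I factors, Ndufaf6 was at -1.43 (SE 0.67), Ndufaf1 at -1.26 (SE 0.64) and Ndufaf2 at -1.06 (SE 0.55) in log2 fold change.

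The 13 transcription factors and coactivators of the pathway lay nearer to the median of all genes, with a median log2 fold change of -0.19 and 9 of 13 below 0. Their median was -0.28 without WT1 and -0.17 without WT2. Still, WT2 was the lowest library for 5 of the 13. Among these, Ppargc1a stood at 64.2 CPM in WT1, 1.14 in WT2, 34.3 in KO1, 69.4 in KO2 and 86.4 in KO3. Ppara stood at 5.94 CPM in WT1, 0.017 (1 read) in WT2, 3.51 in KO1, 1.37 in KO2 and 2.95 in KO3. Every KO library lay below both WT libraries for 3 of the 13, Tfam, Gabpb1 and Polrmt, against a background of 11.1%, and above both for 2, Yy1 and Ppargc1b, against 13.5%. Tfam, which packages and transcribes mitochondrial DNA, stood at 86.5 CPM in WT1, 64.2 in WT2, 58.5 in KO1, 50.5 in KO2 and 30.1 in KO3, with a log2 fold change of -0.70 (SE 0.42). Gabpb1, a partner subunit of the ETS factor GABP, was at -0.43 (SE 0.33), and Polrmt, the mitochondrial RNA polymerase, at -0.30 (SE 0.46), both in log2 fold change. Yy1 stood at 5.71 CPM in WT1, 9.41 in WT2, 12.7 in KO1, 19.2 in KO2 and 11.5 in KO3, with a log2 fold change of 0.94 (SE 0.65), and Ppargc1b, a coactivator of mitochondrial genes, stood at 8.83 CPM in WT1, 0.485 in WT2, 16.4 in KO1, 13.8 in KO2 and 10.4 in KO3, with a log2 fold change of 1.54 (SE 1.21). None of Tfam, Gabpb1, Polrmt, Yy1 and Ppargc1b passed edgeR's test, with adjusted p from 0.847 to 0.957.

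In the authors' deposited table, 79 members have an adjusted p-value, and 0 are under 0.05, where the background is 1.43% of 12872 genes. The authors' deposited table gives log2 fold changes below 0 for 79 of the 80 members it has values for, with a median of -0.64, and its smallest adjusted p among members is 0.527, for Ndufb4. Of the members, 31 overlap another annotated gene, 28 of them on the opposite strand, which the library kit does not separate. The median log2 fold change of these 31 was -0.83, as was that of the members that overlap no other gene.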

How the data were processed

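RNA of mitral leaflets, extracted on columns and treated with DNase, was made into libraries with a SMART-Seq v4 kit, per the labels' protocols; this kit does not mark the strand. The submitters' processing notes name FastQC 0.11.5, cutadapt 1.11, HTSeq and DESeq2, with mm10 and GRCm38 as builds. For the aligner and annotation, nothing is given in the sources used here. The authors deposited 1 table with raw read counts per gene and library, whole numbers that were not normalized. Per the file headers it also holds the authors' DESeq2-style comparison: a mean signal of normalized counts, log2 fold changes and their standard errors, a score (the test statistic), and raw and adjusted p-values.

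The counts went into edgeR 4.0.16 (R 4.3.3): filterByExpr, TMM scaling and the robust quasi-likelihood test, two-sided, over 14244 genes, with Benjamini-Hochberg adjustment over all of them and a call at an adjusted p under 0.05. DESeq2 1.42.0, edgeR's likelihood-ratio test and limma-voom (limma 3.58.1), other scalings and filters, removal of a length trend, and leaving out each library were alternatives. Levels per transcript length (TPM) use the median length of a gene's protein-coding transcripts in GENCODE M21 (basic set). Intervals and floors of 3 counts cover counting error only, since amplified reads are not independent molecules. The fits were tested on simulated data, drawn for each gene independently and without a shift shared by a set of genes within a library. That test therefore does not cover the difference between WT1 and WT2.

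Members are described by counts and medians beside those of all genes tested. Of the 82, 48 are named by rule (1 more is not reported here): in each complex the 3 highest and 3 lowest log2 fold changes among members whose mean was 20 or more normalized reads, members with an unadjusted p under 0.05 (none), tissue forms and paralogues, catalytic members, and the highest level per length. Other members named were chosen after their values were seen. The members and all lists were chosen with earlier results of these data known. Many of these genes have processed pseudogenes, whose reads cannot be told apart with certainty, so single values are uncertain to that extent.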

Additional observations from a re-analysis of the deposited data

How the results depend on the processing

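Leaving out WT replicate 1 or WT replicate 2 changed what the members show. Over fits that leave out 1 library, the number of members called ranged from 0 to 3, the number with every KO library above the WT libraries from 0 to 58, and the number with every KO library below them from 0 to 78. The last number was 0 with all libraries (11.1% of all genes tested), 8 without KO replicate 1 (17.9%), 2 without WT replicate 1 (30%), 78 without WT replicate 2 (30.1%) and 78 over the 3 libraries that share a title code (WT replicate 1, KO replicates 1 and 2; 36%). The median log2 fold change ranged from -1.53 to 0.72 over all members, -1.50 to 0.64 for complex I, -1.73 to 0.91 for II, -1.64 to 0.75 for III, -1.59 to 0.87 for IV and -1.37 to 0.79 for V, above 0 only without WT replicate 1. Without WT replicate 1, 43 of the 46 named and tested members changed sign, against 1, 1 and 2 without WT replicate 2, KO replicate 1 and KO replicate 2. The log2 fold changes of the members that changed sign ranged as follows when 1 library was left out: Ndufa10 -0.97 to 1.24, Ndufa12 -0.74 to 1.39, Ndufa4 -1.46 to 0.33, Ndufa4l2 -0.87 to 4.11, Ndufb4 -1.99 to 0.065, Ndufb8 -1.96 to 0.62, Ndufb9 -1.93 to 0.99, Ndufs1 -1.09 to 1.54, Ndufs3 -1.52 to 0.72, Ndufs7 -1.44 to 0.76, Ndufs8 -1.41 to 0.52, Ndufv1 -1.66 to 1.19, Ndufv2 -1.86 to 0.71, Sdha -1.33 to 0.99, Sdhb -1.80 to 1.02, Sdhc -1.74 to 0.69, Sdhd -1.72 to 0.83, Uqcr10 -1.35 to 0.56, Uqcr11 -1.68 to 0.52, Uqcrc1 -1.55 to 0.81, Uqcrc2 -1.26 to 1.01, Uqcrfs1 -1.76 to 1.07, Uqcrh -1.60 to 0.41, Uqcrq -1.73 to 0.85, Cox5a -1.77 to 1.66, Cox5b -1.71 to 1.12, Cox6a1 -1.25 to 0.14, Cox6a2 -2.05 to 8.18, Cox6b1 -1.59 to 0.87, Cox7a1 -1.86 to 6.38, Cox7a2 -1.59 to 0.87, Cox7b -1.57 to 1.36, Cox7c -1.76 to 0.87, Cox8a -1.53 to 0.77, Cox8b -1.65 to 13.19, Atp5a1 -1.14 to 1.43, Atp5b -1.31 to 1.46, Atp5c1 -1.76 to 1.27, Atp5f1 -1.74 to 0.79, Atp5g1 -1.80 to 1.70, Atp5g2 -1.11 to 0.13, Atp5g3 -1.71 to 1.78, Atp5s -0.88 to 0.63, Atp5sl -0.41 to 0.52. The high values of Cox8b and Ndufa4l2 rest on 0 and 23 reads in WT replicate 2, and that of Cox8b is no bound.

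Of other settings, limma-voom turned these log2 fold changes positive: Ndufa10 0.15, Ndufa12 0.37, Ndufs1 0.25, Cox6a2 4.08, Cox7a1 3.21, Cox8b 6.19, Atp5a1 0.14, Atp5b 0.052, Atp5g3 0.0076, Atp5s 0.058, Atp5sl 0.15. Total counts did so for Ndufa12 0.20, Atp5sl 0.17, and removal of the length trend for Ndufa12 0.52, Atp5sl 0.20. The libraries with the shared code turned 1 negative, Ndufa4l2 -0.51. The cause was not tested. DESeq2 size factors, the DESeq2 Wald test, edgeR's likelihood-ratio test and both other filters changed no sign among named members, and no setting but leaving out WT replicate 1 changed the count of members called. No paired analysis was possible because replicate numbers were given in order of deposit and pair no libraries. Leaving out Cox6a2, Cox7a1 and Cox8b, an alternative chosen after seeing the data, kept the median of all members and of complex IV at -0.83. The group comparison is limited by the 5.62-fold difference between the 2 WT libraries in the members' summed level, and depth limits the ratios of Cox8b, with 0 reads in WT replicate 2.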
